A study of Saccharomyces cerevisiae with 4 samples.

Results

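Among the 4928 open reading frame transcripts of the deposited yeast annotation, 298 had at least 50% of their length covered by noncoding transcripts of the opposite strand, and these 298 are described here. Coverage was computed from annotated positions alone, as the share of the open reading frame transcript lying under the union of opposite-strand stable unannotated transcripts (SUTs), Xrn1-sensitive unstable transcripts (XUTs) and cryptic unstable transcripts (CUTs), so no measured value enters the rule. The whole table held 6030 features, among them 4630 other open reading frames, 500 SUTs, 433 XUTs and 169 CUTs. The cells were Saccharomyces cerevisiae carrying Ssl2-FRB, an anchor-away allele of the TFIIH translocase, in a strain named Y40343, grown at 30 C in rich glucose medium. Both groups carried the same allele: 2 libraries had rapamycin (with rapa), which tethers the FRB-tagged protein to an anchor that leaves the nucleus, and 2 had none (no rapa). The rapamycin dose and exposure time are not stated in the labels, and no untagged strain with rapamycin is among the 4 libraries, so effects of the drug and of Ssl2 removal cannot be told apart. RNA made in the last 6 min was labelled with 5 mM 4-thiouracil, purified and sequenced, so the values describe newly made RNA. Levels are counts scaled to library size (CPM) after trimmed-mean (TMM) scaling, which centres changes on the bulk of features. Rises, falls and more or less RNA are therefore relative to that bulk, and a change common to most features would not be seen.

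Yeast promoters and gene ends often lack nucleosomes on both sides, and RNA polymerase II can start there in either direction. Transcripts that start near the end of a gene and run backwards through it are antisense to it. CUTs are destroyed in the nucleus by the exosome, XUTs in the cytoplasm by the exonuclease Xrn1, and SUTs last long enough to be seen in wild-type cells. At several inducible yeast genes, GAL10 and PHO84 among them, antisense transcription has been tied to chromatin changes over the sense promoter. Ssl2, with the rest of TFIIH, opens promoter DNA so that the polymerase can start.

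The windows before the start sites of 5 members and of their antisense transcripts are shown as examples of the kinds of change described further on: more sense with less antisense RNA (GAL10, AZR1), less sense with more antisense RNA (OPT1), less sense RNA alone (HXT1) and less antisense RNA alone (FET4). All are printed 5' to 3' on the strand transcribed, on build R64, and capitals mark TATAAA or TATATA in either orientation in the sense windows and TTACCCG, a core of the Reb1 binding motif, in the antisense windows.
GAL10, 100 bases before the sense start, chrII:278378-278477, minus strand: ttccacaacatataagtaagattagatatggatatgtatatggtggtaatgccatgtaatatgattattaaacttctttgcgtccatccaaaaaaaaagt
SUT013, 140 bases before the antisense start under GAL10, chrII:276622-276761, plus strand: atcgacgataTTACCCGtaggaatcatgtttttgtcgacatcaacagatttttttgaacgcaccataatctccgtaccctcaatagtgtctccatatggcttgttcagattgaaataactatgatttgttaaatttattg
AZR1, 100 bases before the sense start, chrVII:942669-942768, plus strand: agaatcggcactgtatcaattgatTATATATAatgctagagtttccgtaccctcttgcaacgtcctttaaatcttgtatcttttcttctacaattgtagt
SUT569, 140 bases before the antisense start under AZR1, chrVII:944898-945037, minus strand: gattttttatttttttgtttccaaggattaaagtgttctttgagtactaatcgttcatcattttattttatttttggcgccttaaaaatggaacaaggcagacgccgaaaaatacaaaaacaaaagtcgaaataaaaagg
HXT1, 100 bases before the sense start, chrVIII:292658-292757, minus strand: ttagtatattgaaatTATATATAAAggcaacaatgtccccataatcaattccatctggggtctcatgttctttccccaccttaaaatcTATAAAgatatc
SUT163, 140 bases before the antisense start under HXT1, chrVIII:291025-291164, plus strand: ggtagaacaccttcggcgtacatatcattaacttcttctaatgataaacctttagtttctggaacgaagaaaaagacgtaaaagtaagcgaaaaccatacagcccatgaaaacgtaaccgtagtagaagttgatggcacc
OPT1, 100 bases before the sense start, chrX:36282-36381, minus strand: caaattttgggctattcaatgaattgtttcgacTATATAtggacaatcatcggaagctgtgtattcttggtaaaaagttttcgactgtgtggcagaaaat
SUT198, 140 bases before the antisense start under OPT1, chrX:33522-33661, plus strand: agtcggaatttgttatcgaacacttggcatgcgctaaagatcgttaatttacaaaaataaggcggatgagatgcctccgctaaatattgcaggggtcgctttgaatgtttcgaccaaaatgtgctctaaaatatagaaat
FET4, 100 bases before the sense start, chrXIII:914618-914717, minus strand: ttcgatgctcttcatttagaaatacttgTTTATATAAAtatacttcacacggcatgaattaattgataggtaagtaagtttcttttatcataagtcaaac
SUT322, 140 bases before the antisense start under FET4, chrXIII:912370-912509, plus strand: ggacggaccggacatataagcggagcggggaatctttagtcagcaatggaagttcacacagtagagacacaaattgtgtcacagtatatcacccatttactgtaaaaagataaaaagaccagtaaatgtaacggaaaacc
In these windows TATAAA or TATATA was found before the sense starts of AZR1, HXT1, OPT1 and FET4, and was not found before the sense start of GAL10 or in the 5 antisense windows. The antisense window of GAL10 held the only TTACCCG, on the transcribed strand, inside the GAL10 transcript itself. These letters are descriptions of the windows, not mapped binding sites. GAL10, AZR1, HXT1 and OPT1 belong to the genes named by rule, while FET4 was chosen after its values were seen.

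Over all members, TATAAA or TATATA on either strand stood in the 100 bases before the annotated sense start of 132 of 298 (44.3%), and in those of 30.7% of the other open reading frames. The main antisense partners held one in 36.2% of 293 windows, and the other noncoding transcripts in 24.6%. A+T content did not separate the groups, with medians of 65% for members and other open reading frames and 66% for partners. The Reb1 motif TTACCCG or its reverse complement, searched in 140 bases, was found before 10 members (3.36%), against 7.17% of other open reading frames and 6.25% of all features. Members with and without the TATA letters had median log2 fold changes of -0.07 and -0.04. Annotated starts can be some bases away from the real ones, so a missing motif says only that its letters are not in the window.

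Most members lay under 1 noncoding transcript: 231 had 1, 63 had 2 and 4 had 3. For each member the transcript with the most overlapping bases was taken as its main antisense partner, a SUT for 151 members, an XUT for 121 and a CUT for 26. The main partner was shared with another member in 10 members, so the distinct partners number 293. Median coverage was 85.3%, and 49 members were covered completely. In the most frequent layout, held by 163 members, the antisense transcript started inside the sense transcript, at a median of 131 bases from its end, and ran past the sense start by a median of 183 bases. It lay wholly inside the sense transcript in 60 members, spanned it in 45, and started beyond its end but stopped inside in 30. Members were shorter than the other open reading frames, with a median transcript length of 1162 against 1449 bases. They were also made at lower levels, with a median of 28.4 CPM with rapa and 30.1 CPM without, where the other open reading frames had 69.4 CPM with rapa and 84.5 CPM without.

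The coverage limit of 50% had members close to it on both sides. GLG2, NOP19 and ICL2 were just inside at 50.04%, 50.1% and 50.56%, and YOR238W, LOA1 and RRT6 just outside at 49.95%, 49.71% and 49.67%. Of the members, 295 matched the R64 gene table and 262 have a standard symbol. Low counts kept 3 of the 298 out of testing, YHR180C-B, YMR206W and YNR071C, the last with 0 counts in every library. The remaining 295 were tested among 5707 features.

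**Figure D1:**
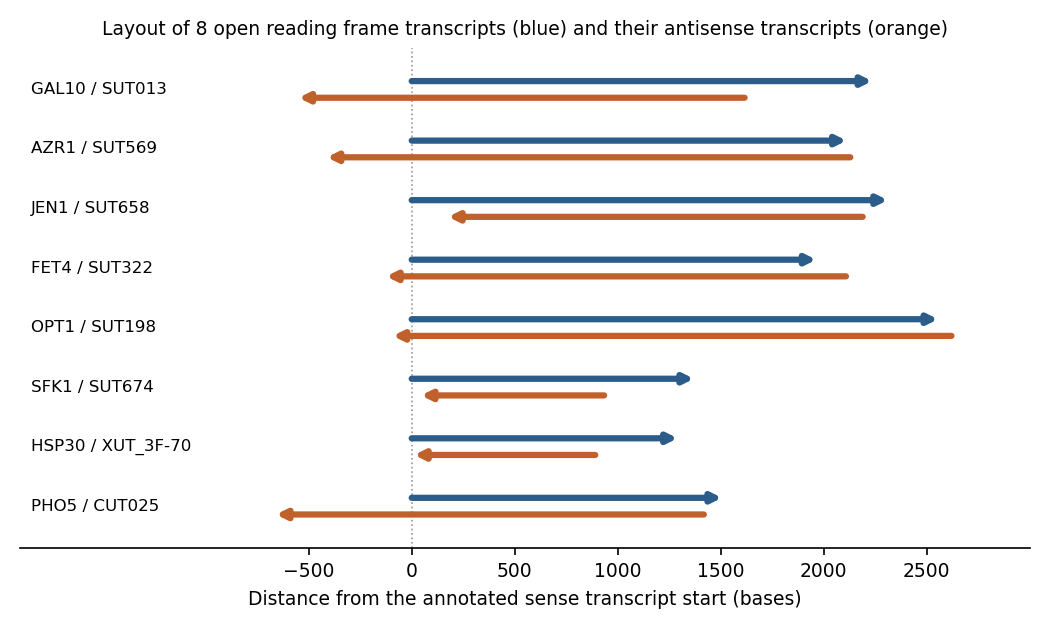
Annotated sense (blue) and antisense (orange) transcripts of 8 members, drawn to scale against distance in bases from the sense start (dotted line), with arrows in the direction of transcription. The antisense transcripts of GAL10, AZR1, FET4, OPT1 and PHO5 run past the sense start, while those of JEN1, SFK1 and HSP30 stop inside.

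Feature counts were 11441998 and 12685769 in the with rapa libraries, against 32435994 and 29318499 in the no rapa libraries, and 50.5% and 50% of the reads lay outside every feature with rapa, against 33.7% and 33.1% without. The 3 alpha-cell markers measured summed to 678 and 714 CPM with rapa, against 839 and 1002 CPM without, and the 5 a-cell markers to 16.9 and 39.2 CPM with rapa, against 22.5 and 18.7 CPM without. FPR1, which is deleted in usual anchor-away strains, stood at 2.08 and 1.63 CPM with rapa, against 2.26 and 2.25 CPM without. SSL2 was not analysed here. The counting appeared to leave out reads that 2 features of the same strand share, though its settings were not given. If so, a member or partner overlapped on its own strand is counted only where it stands alone. Such an overlap was present for 30 members and 80 of the 293 partners. Loci described below where the sense or the antisense transcript had such an overlap include SFK1, HSP30, GIC1, JEN1, MBR1, JLP2, OSI1 and EDS1. FAA1, MDH3, YGP1, HSP31, SAM3, SUR7, CTR1, CTA1, CCE1, ARG1, SPR1 and CRR1 are further ones. Ratios per base used the full length of each transcript, so they may be distorted at these loci.

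Without rapamycin the antisense strand of a typical member carried far less signal per base than the sense strand, and with rapa the gap was smaller. Per length, in the 190 pairs with no same-strand overlap on either strand, the median antisense to sense ratio was 21.6% and 32.1% in the with rapa libraries, against 9.73% and 11% in the no rapa libraries. Both with rapa libraries were above both no rapa libraries. Antisense exceeded sense in 35 of these pairs with rapa, against 31 without. Within these 190 pairs, the 10 members with the highest CPM without rapamycin show how far the strands were kept apart. Their lowest antisense to sense ratio was 0.951% and 2.78% with rapa, against 0.300% and 0.440% without. They were chosen by the sense level that enters the no rapa ratio, so nothing is read from the difference between the groups. Whether reads assigned to the wrong strand contributed to such low ratios was not tested.

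**Figure D2:**
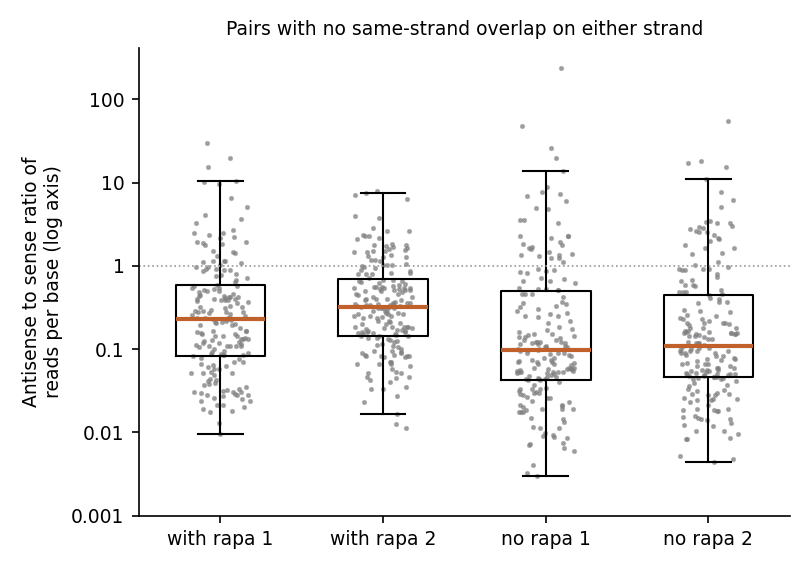
Antisense to sense ratio of reads per base (log axis) in the 4 libraries, for the 190 pairs without same-strand overlap, leaving out pairs with 0 antisense reads. Points are pairs, boxes give quartiles with the median in orange and whiskers reach up to 1.5 box lengths, and the medians of 21.6% and 32.1% with rapa lie above those of 9.73% and 11% without.

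With rapa, 68 members rose and 79 fell in labelled RNA (23.1% and 26.8% of 295 tested). Over all 5707 features 19.3% were called higher and 26.7% lower, 46.0% in either direction (edgeR, adjusted p under 0.05). Among other open reading frames 17.1% rose and 30.5% fell. The median log2 fold change was -0.07 for members, -0.15 for other open reading frames and -0.03 for all features. That of members turned slightly positive with DESeq2 size factors (0.01) and in a fit on open reading frames alone (0.06), so its sign depended on the scaling. Without no rapa replicate 1 or without no rapa replicate 2, the members called higher numbered 36 in each case and those called lower 65 and 62. Both with rapa libraries lay above both no rapa libraries in 102 members and below them in 120, with backgrounds of 34.1% and 40.1% of all features. Changes of at least 4-fold were called in 20 members upward and 13 downward, against 4.87% and 1.91% of all features. Among the 4615 other open reading frames tested they were called in 95 upward and 93 downward. All 20 upward members were in the lowest quartile of level of all open reading frames. A bulk culture cannot tell fewer cells making a transcript from less new RNA per cell.

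The members' share of all open reading frame counts was smaller with rapa, at 1.60% and 1.74%, against 2.61% and 2.64% without. Leaving the 5 members with the highest CPM without rapamycin out of the members' counts, it was 1.46% and 1.61% with rapa, against 1.94% and 1.96% without. The total still held these 5, and their choice on the no rapa libraries can itself narrow the gap. With 2 libraries a group, the smallest exact permutation p would be 1 in 3, so no test is given. The main partners took 0.383% and 0.452% of all feature counts with rapa, against 0.289% and 0.286% without. Counting also the reads outside every feature, the partners took 0.189% and 0.226% of all reads with rapa, against 0.191% and 0.191% without, and the groups overlapped.

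Calls varied with the level of the member. When all open reading frames were split into quartiles of level, the lowest quartile held 149 tested members: 45 rose (30.2%) and 17 fell (11.4%), where other open reading frames of that quartile had 13.8% and 9.77%. In the highest quartile 23 members were measured, and 3 of them rose while 17 fell (73.9%), against 24.8% and 34.9% of other open reading frames there. Level was taken over all 4 libraries. The differences between these shares were not tested.

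Calls also varied with where the antisense transcript lay. Where it covered the sense start, 56 of 208 members rose (26.9%) and 47 fell (22.6%). Where it did not, 12 of 87 rose (13.8%) and 32 fell (36.8%). Leaving out a no rapa library brought these to 30 higher with 38 or 35 lower for a covered start, and to 6 higher with 27 lower for an uncovered one. Length moved with this split, since members with a covered start had a median of 1052 bases and the rest 1366. Among members up to 1431 bases, 27.8% of those with a covered start rose and 19.4% fell, and 14.9% of those with an uncovered start rose and 29.8% fell. Among longer ones, 25% and 29.7% did so with a covered start, and 12.5% and 45% with an uncovered one. Other open reading frames had 23.9% higher and 14.6% lower when short and 10.6% and 45.7% when long. The part of length and level in the split was not tested further.

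**Figure D3:**
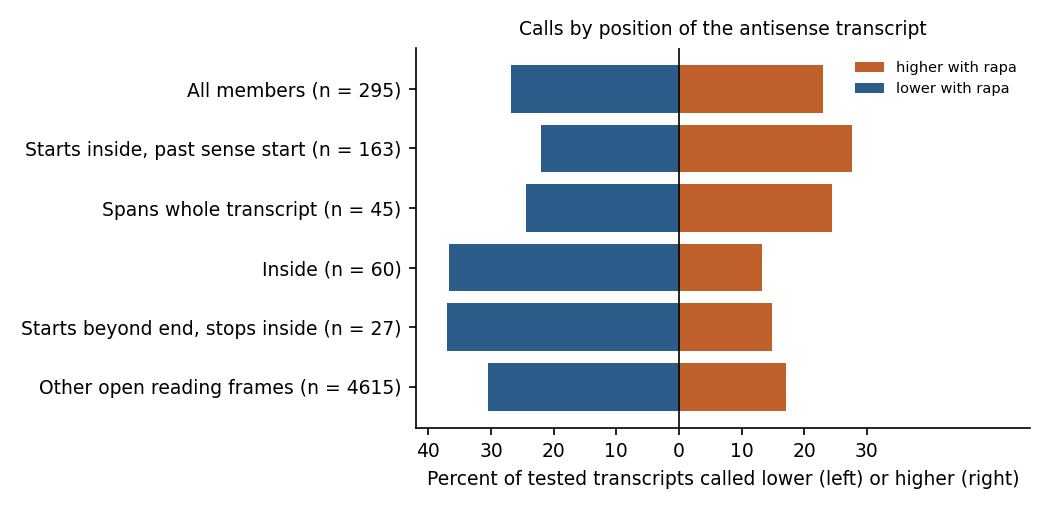
Percent of tested transcripts called higher (orange, right) or lower (blue, left) with rapa, for all members, for the 4 layouts of the antisense transcript and for other open reading frames, with the number tested in brackets. Members whose antisense transcript starts inside and runs past the sense start had 27.6% higher and 22.1% lower, and those with it inside had 13.3% and 36.7%.

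Relative to the bulk of features, more antisense partners were called higher than lower with rapa. Of 271 tested partners, 104 rose (38.4%) and 12 fell (4.43%), against backgrounds of 30.6% and 4.64% over all SUTs, XUTs and CUTs tested (edgeR, same fit). Their median log2 fold change was 1.15, close to the 1.12 of the 526 other noncoding transcripts tested. Leaving out with rapa replicate 1 gave 172 partners higher, while leaving out with rapa replicate 2 gave 20 lower and a median of 0.83. Without no rapa replicate 1 or 2 the partners called higher numbered 36 and 39, and those called lower 5 and 6. CUT partners had the largest median, 2.09, against 1.36 for XUT and 0.81 for SUT partners. Noncoding transcripts that were not main partners had the same order, with medians of 2.04 for CUTs, 1.22 for XUTs and 0.68 for SUTs. All 15 called CUT partners were higher, and so were all 30 called among the other CUTs. The share of reads outside every feature moved the same way as the noncoding partners, and its part in their change was not tested.

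To ask whether the balance of strands moved at a locus, the change of the antisense transcript was compared with that of its sense partner in one model, with the library as a term and the strand by group interaction tested. Of 273 member pairs with both transcripts measured, the antisense to sense ratio rose in 98 and fell in 18 (edgeR, adjusted p under 0.05). Over all 499 opposite-strand pairs overlapping by at least 100 bases, these 273 included, it rose in 43.9% and fell in 4.21%. The median difference of the log2 fold changes, antisense minus sense, was 1.11, and it was positive in 208 pairs. The other 226 pairs tested, of other open reading frames or of members with a further antisense transcript, had a median of 1.91. Of these 226 pairs the ratio rose in 121 and fell in 3, so a rise was not particular to the member pairs. By class the ratio rose in 44 of 142 pairs and fell in 13 under SUTs, rose in 44 and fell in 5 of 105 under XUTs, and rose in 10 of 26 under CUTs. Without no rapa replicate 1 or 2 the pairs called higher numbered 36 and 43 and those called lower 6 and 4, and without with rapa replicate 2 those called lower numbered 30. Across the 273 pairs the 2 log2 fold changes had a Pearson correlation of -0.01, a description over loci that share libraries.

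Where both strands were called, the sense transcript fell and the antisense rose in 31 pairs (11.4% of 273), and both rose in 24 (8.79%). The sense rose and the antisense fell in 5 (1.83%), and both fell in 3 (1.1%). Single-strand backgrounds were 17.1% higher and 30.5% lower for other open reading frames, and 30.6% and 4.64% for SUTs, XUTs and CUTs. The shares of the members themselves were 23.1% and 26.8%, and those of the main partners 38.4% and 4.43%. Unlinked calls on the 2 strands would also yield all of these combinations. Whether the counts differ from that was not tested. In 49 pairs the antisense rose without a call on the sense strand. The counts of opposite moves were 11 and 14 (sense lower) and 1 and 2 (sense higher) without no rapa replicate 1 and 2, and the 31 became 55 without with rapa replicate 1. Of the 18 pairs with a lower antisense to sense ratio, 17 had a called rise of the sense transcript and the other was FET4.

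**Figure D4:**
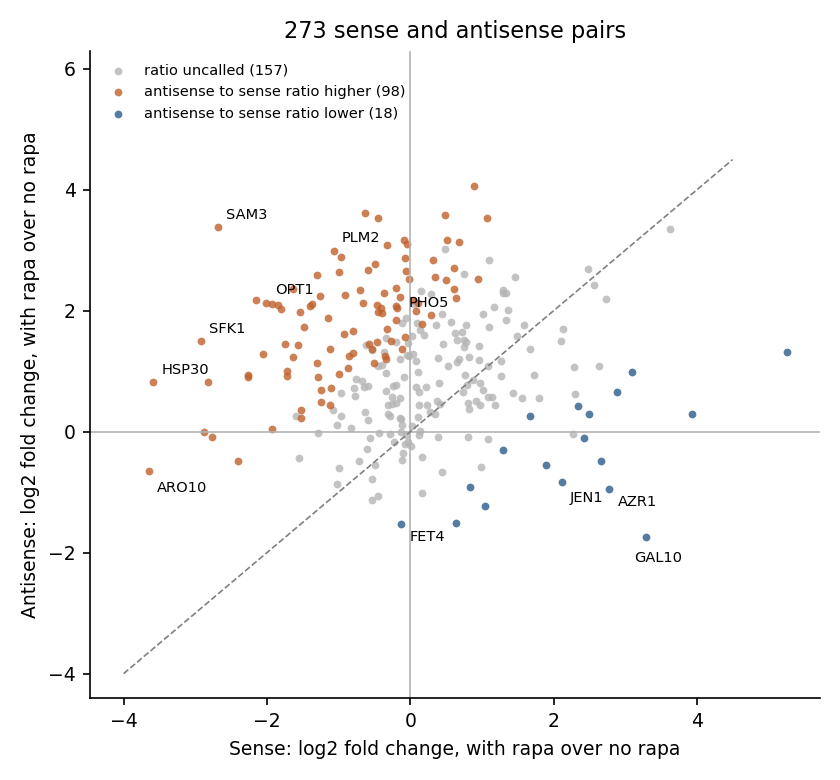
Log2 fold change (with rapa over no rapa) of the antisense transcript against that of its sense partner for 273 pairs, coloured by the call on the antisense to sense ratio. Orange pairs (98) lie above the dashed line of equal change and blue pairs (18) below it, with GAL10, AZR1 and JEN1 at lower right.

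GAL10, the epimerase gene of galactose use that is silent in glucose, had the largest fall of the antisense to sense ratio among the pairs named by rule. The gene (YBR019C, chrII:276143-278377, minus strand, R64) lies 72.3% under SUT013 (chrII:276762-278926), which starts 619 bases inside the sense transcript and runs 549 bases past its start. GAL10 was at 33.4 and 28.5 CPM in the with rapa libraries, against 3.25 and 3.03 CPM in the no rapa libraries. SUT013 was at 12.8 and 14 CPM with rapa, against 44.1 and 45.3 CPM without. The strands therefore changed places: per base, antisense was 0.394 and 0.508 times sense with rapa, against 14 and 15.5 times without. The sense log2 fold change was 3.30 (SE 0.32, edgeR adjusted p = 1.25e-05), the antisense one -1.74 (SE 0.23, adjusted p = 9.60e-05), and their difference -5.03 (SE 0.56, adjusted p = 4.75e-04). All 3 calls held in every alternative run. The windows printed above show the TTACCCG letters upstream of the SUT013 start.

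AZR1, a transporter gene tied to azole resistance, lay completely under SUT569. AZR1 (chrVII:942769-944879, plus strand) was at 6.6 and 14.3 CPM with rapa, against 1.03 and 2.01 CPM without, and SUT569 at 26 and 27.2 CPM with rapa and 59.5 and 43.8 CPM without. Antisense stayed above sense in all 4 libraries, by 3.28 and 1.59 times per base with rapa, against 48 and 18.1 times without. The ratio fell by a difference of -3.68 (SE 0.68, edgeR adjusted p = 0.00198), with a sense change of 2.78 and an antisense change of -0.95 on the log2 scale. Without no rapa replicate 1 the calls of the separate strands were lost (edgeR adjusted p of 0.0534 for AZR1 and 0.0940 for SUT569).

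JEN1, which encodes the lactate and pyruvate permease, moved in the same directions. JEN1 (chrXI:21908-24218, plus strand) was at 15.6 and 16.4 CPM with rapa, against 3.39 and 3.98 CPM without, and its partner SUT658, which lies inside it, at 16.9 and 25.5 CPM with rapa and 37.8 and 37.4 CPM without. The groups did not overlap on either strand. The ratio difference was -2.97 (SE 0.56, edgeR adjusted p = 0.00209). The fall of SUT658 was not called without no rapa replicate 1 or 2 (edgeR adjusted p of 0.0871 and 0.0756).

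MBR1, linked to mitochondrial function, and POX1, the peroxisomal fatty acyl-CoA oxidase, were the other named genes with a lower antisense to sense ratio among the 5 lowest. MBR1 was at 37.5 and 23.9 CPM with rapa, against 9.86 and 6.67 CPM without, while SUT665 over it was at 25.9 and 26.1 CPM with rapa and 33.3 and 43.1 CPM without. SUT665 was uncalled, and was called lower with the replicate block (log2 fold change -0.55, edgeR adjusted p = 0.0434) and without with rapa replicate 1 (adjusted p = 0.0388). Per base, antisense was below sense in both with rapa libraries and above it in both no rapa libraries. MBR1 or SUT665, or both, overlapped another feature of the same strand, which may distort this comparison. POX1 was at 5.79 and 16.9 CPM with rapa, against 2.09 and 1.94 CPM without, with SUT537 at 6.24 and 21.8 CPM with rapa and 11.5 and 11.5 CPM without, uncalled and overlapping between groups, though called higher without with rapa replicate 1 (edgeR adjusted p = 0.00821). The ratio differences were -2.43 (SE 0.58) for MBR1 and -2.27 (SE 0.58) for POX1 (edgeR adjusted p of 0.00736 and 0.00966). They were not called without no rapa replicate 2 for MBR1 (0.139) or without no rapa replicate 1 or 2 for POX1 (0.135 and 0.128).

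INH1 and FAA1, picked after their values were seen, were the remaining pairs in which the sense transcript rose while the antisense fell. INH1, the inhibitor of the mitochondrial ATP synthase, was at 25.4 and 33.3 CPM with rapa, against 14.1 and 14.4 CPM without, and SUT460 spanning it at 19.5 and 17.4 CPM with rapa and 35.1 and 51.8 CPM without. FAA1, a long-chain fatty acyl-CoA synthetase, was at 543 and 519 CPM with rapa, against 375 and 309 CPM without, and XUT_15R-403 at 18.8 and 23.3 CPM with rapa and 73.9 and 46.3 CPM without. The groups did not overlap on either strand of the 2 loci. Their sense calls were lost without no rapa replicate 1 (edgeR adjusted p of 0.0550 and 0.0684), and that of FAA1 also without no rapa replicate 2 (0.259). The fall of SUT460 was not called without no rapa replicate 2 (0.0526). The ratio was not called without no rapa replicate 1 or 2 at INH1 (0.0728 and 0.139) or at FAA1 (0.175 and 0.0832).

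FET4, the low-affinity iron transporter, showed the antisense change alone. FET4 (chrXIII:912654-914617, minus strand) was at 81.1 and 56.8 CPM with rapa, against 74.6 and 75.8 CPM without, which overlapped. SUT322, spanning the whole gene, was at 121 and 87 CPM with rapa, against 304 and 297 CPM without, a log2 fold change of -1.53 (SE 0.19, edgeR adjusted p = 5.79e-05). Antisense remained above sense on both sides, 1.31 and 1.35 times per base with rapa, against 3.58 and 3.44 times without. The ratio difference of -1.40 (adjusted p = 0.0367) was lost without filtering (0.0617) and without no rapa replicate 1 or 2 (0.346 and 0.298). At TAT1, an amino acid permease picked after its values were seen, XUT_2F-154 fell too, standing at 67.1 and 51.2 CPM with rapa, against 127 and 121 CPM without, while TAT1 itself was at 113 and 87.5 CPM with rapa and 150.2 and 124 CPM without. The TAT1 groups did not overlap, and its log2 fold change of -0.45 (edgeR adjusted p = 0.0627) was called lower with the replicate block (-0.45, adjusted p = 0.0180) and without with rapa replicate 1 (-0.68, adjusted p = 0.00135).

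**Figure D5:**
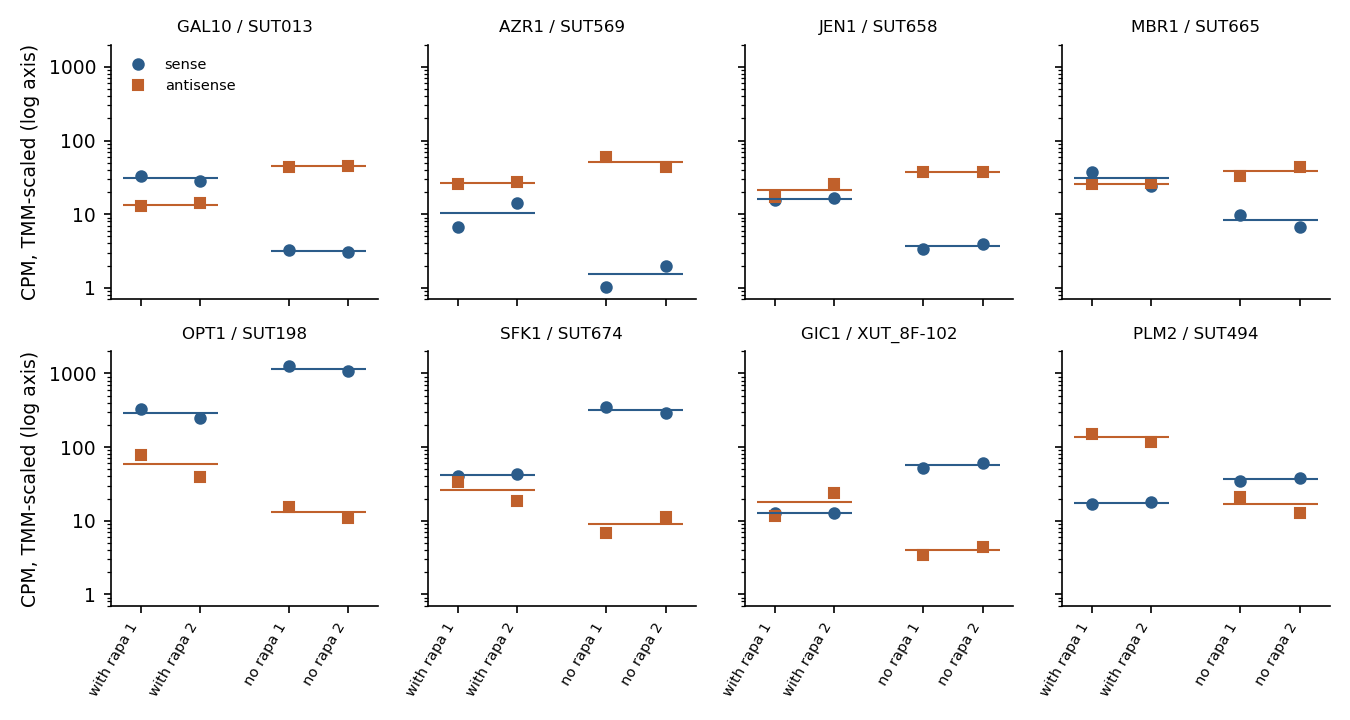
CPM (TMM-scaled, log axis) of the sense (blue) and antisense (orange) transcript in each library for 8 named members, with lines at the group means (n = 2 each). In the upper row the sense is higher and the antisense lower with rapa, with antisense uncalled for MBR1, and in the lower row the antisense is higher and the sense lower.

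Other named loci moved in the opposite direction, with less sense and more antisense RNA. OPT1, the glutathione and oligopeptide transporter (chrX:33727-36281, minus strand), was at 327 and 250.1 CPM with rapa, against 1249 and 1067 CPM without. SUT198, which spans it, was at 77.8 and 38.7 CPM with rapa, against 15.6 and 10.9 CPM without. The ratio difference was 4.09 (SE 0.54, edgeR adjusted p = 7.07e-04), and both strands and the ratio were called in every alternative run. Antisense was still below sense per base, at 0.224 and 0.146 times with rapa, against 0.0117 and 0.00964 times without.

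SAM3, the S-adenosylmethionine permease, had the highest ratio difference of the named pairs, 6.05 (SE 0.60, edgeR adjusted p = 4.75e-04). It was at 165 and 99.9 CPM with rapa, against 1015 and 680.1 CPM without, and its partner XUT_16R-9 at 3.89 and 2.2 CPM with rapa and 0.332 and 0.238 CPM without. The antisense rise was not called without no rapa replicate 1 or 2 (log2 fold changes of 3.62 and 3.15). This XUT shares its strand with SUT803, so part of it may not have been counted. SFK1, a plasma membrane protein acting with the phosphatidylinositol kinase Stt4, was at 40.4 and 43.7 CPM with rapa, against 347 and 293 CPM without, with SUT674 at 33.2 and 18.7 CPM with rapa and 6.91 and 11.4 CPM without. At SFK1 antisense reached 1.27 and 0.658 times sense per base with rapa, against 0.0307 and 0.0598 times without. SFK1 or SUT674, or both, overlapped another feature of the same strand, so these ratios may be distorted. The rise of SUT674 was not called without no rapa replicate 1 (adjusted p = 0.0510).

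HSP30, a plasma membrane stress protein, had a ratio difference of 4.38 (SE 0.60, edgeR adjusted p = 7.07e-04) with a call on the sense strand alone. It was at 131 and 105 CPM with rapa, against 1598 and 1228 CPM without, while XUT_3F-70 inside it was at 4.79 and 7.8 CPM with rapa and 3.19 and 3.95 CPM without, called higher only without with rapa replicate 1 (adjusted p = 0.0218). GIC1, an effector of the polarity GTPase Cdc42, was at 12.7 and 12.7 CPM with rapa, against 52 and 60.7 CPM without, and XUT_8F-102 at 11.8 and 23.8 CPM with rapa and 3.45 and 4.42 CPM without. Both strands of GIC1 were called in every alternative run, with a ratio difference of 4.25 (SE 0.60, edgeR adjusted p = 7.07e-04).

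PLM2, a forkhead-domain protein gene, was the reverse of GAL10. It was at 16.7 and 18.2 CPM with rapa, against 35.1 and 38.2 CPM without, and SUT494 at 152 and 117 CPM with rapa and 21 and 12.8 CPM without. Antisense was 10.1 and 7.13 times sense per base with rapa, against 0.661 and 0.371 times without. The log2 fold changes were -1.07 (SE 0.23) for PLM2 and 2.99 (SE 0.25) for SUT494 (edgeR adjusted p of 0.00286 and 6.26e-06), both called in every alternative run. JLP2 had a ratio difference of 4.15 (SE 0.66, edgeR adjusted p = 0.00116) with a call on the antisense strand alone. CUT301 under it was at 5.7 and 15.3 CPM with rapa, against 0.996 and 0.714 CPM without, and JLP2 at 6.51 and 11.8 CPM with rapa and 12 and 16.5 CPM without, called lower only without with rapa replicate 2 (adjusted p = 0.0106).

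Some members fell far more than their antisense transcript did, or without a call on it. ARO10, the phenylpyruvate decarboxylase of amino acid catabolism, had the lowest log2 fold change of the named members, -3.65 (SE 0.24, edgeR adjusted p = 2.21e-06). It was at 44.2 and 54 CPM with rapa, against 729 and 502 CPM without, while SUT485 was at 18.7 and 17.9 CPM with rapa, against 30.7 and 27 CPM without. FRM2, a nitroreductase-like gene, was at 18.4 and 24.3 CPM with rapa and 146 and 168 CPM without, and its antisense transcript at 13.8 and 13.5 CPM with rapa and 15.5 and 11.8 CPM without. CWP1, a cell wall mannoprotein, was at 61.1 and 53.6 CPM with rapa, against 472 and 341 CPM without, and OSI1, an oxidative stress oxidoreductase, at 28 and 25.3 CPM with rapa and 111 and 172 CPM without. OSI1 lies wholly under SUT670, which was at 178 and 172 CPM with rapa, against 261 and 229.9 CPM without. The falls of SUT485 and SUT670, with log2 fold changes of -0.65 and -0.49, were not called with DESeq2 size factors (-0.58 and -0.41, edgeR adjusted p of 0.0693 and 0.0828), with the DESeq2 Wald test (adjusted p of 0.0962 and 0.0779), without with rapa replicate 2 (0.102 and 0.0805) and without either no rapa library.

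The 8 called members with the highest log2 fold changes, among those with a mean of at least 5 on the log2 CPM scale, changed less than the members just described. They were NAT5, an N-terminal acetyltransferase, CRG1, a methyltransferase, ORA1, a short-chain dehydrogenase, CTA1, the peroxisomal catalase, CCE1, a mitochondrial endonuclease, MHO1, YSR3, a sphingoid base phosphate phosphatase, and ARG1, argininosuccinate synthetase. Their log2 fold changes lay between 0.96 (ARG1) and 1.68 (NAT5). CRG1 was at 103 and 122 CPM with rapa, against 35.6 and 34.9 CPM without, with SUT599 at 3.17 and 4.04 CPM with rapa and 2.62 and 3.4 CPM without. NAT5 was at 28.1 and 88.2 CPM with rapa, against 17.3 and 19.1 CPM without, so the with rapa libraries disagreed in size. ORA1 rose together with its partner, the gene standing at 324 and 376 CPM with rapa and 145 and 132 CPM without and XUT_13F-315 at 10.9 and 9.01 CPM with rapa and 1.99 and 2.04 CPM without. This XUT is also the main partner of MRPL44. The rise of XUT_13F-315 was not called without no rapa replicate 1 or 2 (edgeR adjusted p of 0.0656 and 0.0556). YSR3 had more antisense than sense RNA in every library, at 1.88 and 1.57 times per base with rapa, against 2.27 and 2.77 times without.

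Of the list of loci known for studies of antisense transcription, 4 were members, and they did not move alike: GAL10, PHO5, HXT1 and SUR7. PHO5, the secreted acid phosphatase (chrII:429481-430986, minus strand), was at 132 and 135 CPM with rapa, against 163 and 142 CPM without, while CUT025 was at 14.2 and 23 CPM with rapa and 4.82 and 5.48 CPM without. PHO5 itself was uncalled, and CUT025 rose with a log2 fold change of 1.85 (SE 0.38, edgeR adjusted p = 0.00188). Its ratio difference was 2.01, not called without no rapa replicate 1 or 2 (adjusted p of 0.196 and 0.104). HXT1, the low-affinity glucose transporter (chrVIII:290801-292657, minus strand), was at 261 and 177 CPM with rapa, against 1499 and 1478 CPM without. SUT163 was at 2.17 and 8.02 CPM with rapa and 4.28 and 6.67 CPM without, overlapping between groups, and was called lower only without with rapa replicate 2 (edgeR adjusted p = 0.0309). The HXT1 fall had a log2 fold change of -2.76 (SE 0.26, edgeR adjusted p = 1.04e-05), while its ratio difference of 2.53 was lost without with rapa replicate 2 (1.21, adjusted p = 0.0625), without no rapa replicate 1 (0.138) and without filtering (0.0546). SUR7, an eisosome protein, was at 43 and 44.3 CPM with rapa, against 141 and 173 CPM without, and SUT719 at 15.1 and 6.88 CPM with rapa and 2.79 and 2.35 CPM without. The rise of SUT719 was not called without no rapa replicate 1 or 2 (adjusted p of 0.0608 and 0.0816), and part of SUT719 shares its strand with YML053C.

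Some members carried more antisense than sense RNA without rapamycin, and 5 with the highest such ratio were named by rule, GAL10, AZR1, JEN1, POX1 and EDS1. EDS1, a putative zinc-cluster regulator, was at 6.42 and 20.4 CPM with rapa, against 4.42 and 6.05 CPM without, while SUT445 over it was at 166 and 167 CPM with rapa and 53.9 and 28.6 CPM without. The rise of SUT445 had a log2 fold change of 2.01 (SE 0.25, edgeR adjusted p = 6.17e-05). The EDS1 call rested on single libraries, with a log2 fold change of 0.39 and an adjusted p of 0.452 without with rapa replicate 2, and an adjusted p of 0.250 and 0.108 without no rapa replicate 1 and 2. Its ratio was uncalled, with a difference of 0.91, and was called higher without with rapa replicate 2 (1.77, edgeR adjusted p = 0.00365). The other 4 had a lower ratio with rapa, and since all 5 were chosen for a high ratio without rapamycin, the same value that enters the change, nothing is read from that count.

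By function, 12 members stood on a list of genes for carbon sources other than glucose, which also holds the glucose transporter gene HXT2. Of these members 6 rose, 1 fell and 5 were uncalled, with a median log2 fold change of 1.29. Among the 24 other open reading frames of the list that were tested 9 rose and 5 fell, with a median of 0.41. The risers were GAL10, CTA1, POX1, JEN1, ACS1 for acetyl-CoA synthetase and POT1, the peroxisomal thiolase of fatty acid oxidation. HXT2, a glucose transporter, was the one that fell, at 258 and 202 CPM with rapa, against 431 and 289 CPM without, and its call was lost in the fit on open reading frames alone (adjusted p = 0.0520) and when with rapa replicate 2 (0.0882) or no rapa replicate 1 (0.397) was left out. STL1, FOX2, GAL2, GAL4 and CIT3 were uncalled. HXT2, ACS1 and POT1 are not among the genes named by rule. ACS1 was at 13.7 and 23.6 CPM with rapa, against 6.78 and 8.71 CPM without, and its partner SUT002 at 9.41 and 14.6 CPM with rapa and 6.08 and 4.56 CPM without. POT1 was at 3.17 and 5.04 CPM with rapa and 0.465 and 0.85 CPM without and its call was lost without either no rapa library (adjusted p of 0.286 and 0.141, edgeR).

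Members for nitrogen and amino acid uptake mostly fell, as did stress members. Of 5 nitrogen and transport members, OPT1, SAM3 and MEP1 fell, UGA2 rose and TAT1 was uncalled except with the replicate block and without with rapa replicate 1, where it was lower, and of the 35 other open reading frames on the list 22 fell and 1 rose. MEP1 and UGA2 are not among the genes named by rule. MEP1, an ammonium permease, was at 93.1 and 58.3 CPM with rapa, against 179.9 and 190.2 CPM without, with SUT128 at 14 and 11.1 CPM with rapa and 12.7 and 12.8 CPM without. UGA2, an enzyme of 4-aminobutyrate use, was at 25 and 32.6 CPM with rapa, against 13.9 and 13.2 CPM without, and no call was made once no rapa replicate 2 was left out (edgeR adjusted p = 0.0507). Of 5 stress members HSP30, HSP31 and YGP1 fell and TMA17 and GPP2 were uncalled, where 35 of 53 other open reading frames on the list fell and 4 rose. YGP1, a secreted glycoprotein gene, was at 70.8 and 69.8 CPM with rapa, against 288 and 298 CPM without, and SUT747 at 96.4 and 47 CPM with rapa and 31.2 and 27.2 CPM without. HSP31, a chaperone and glyoxalase picked after its values were seen, was at 97.2 and 64.6 CPM with rapa, against 255 and 310.1 CPM without, and XUT_4F-700, which spans it, at 13.8 and 15.8 CPM with rapa and 3.42 and 3.81 CPM without. Both strands of YGP1 and of HSP31 were called in every alternative run.

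Of 5 metal members, FRE4, a ferric reductase, and CTR1, the copper transporter, fell, ZPS1, a zinc-regulated surface protein gene, rose, and FET4 and FIT2 were uncalled. Of the 37 other open reading frames of that list 24 fell and 2 rose. CTR1 was at 115 and 97.8 CPM with rapa, against 319.9 and 295 CPM without, and its partner XUT_16R-354 had 0 reads in every library. That XUT lies inside other features of its strand, and reads shared in this way appeared not to be counted. ZPS1 was at 30.8 and 26.2 CPM with rapa, against 4.25 and 3.47 CPM without, while SUT763 over it was at 1.45 and 6.46 CPM with rapa and 2.62 and 2.41 CPM without. FRE4, not among the genes named by rule, was at 91.2 and 56.5 CPM with rapa, against 299 and 259.8 CPM without. SUT757 was at 11.7 and 16.3 CPM with rapa and 14.2 and 12.9 CPM without. Among cell wall members CWP1 fell, SPR1, a sporulation glucanase, rose and TOS6 was uncalled, where 22 of 38 other list members fell and 2 rose. SPR1 was at 36.1 and 34.8 CPM with rapa, against 8.44 and 5.48 CPM without, with its antisense transcript at 1.99 and 4.26 CPM with rapa and 2.26 and 2.41 CPM without.

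The 2 mating members were both a-cell genes, which alpha cells keep off, and both rose at very low levels, while of the 25 other open reading frames on the list 3 rose and 11 fell. The summed a-cell markers given above overlapped between groups. ASG7 was at 6.6 and 6.38 CPM with rapa, against 0.299 and 0.544 CPM without, and BAR1, the protease that degrades alpha factor, at 5.06 and 15 CPM with rapa and 3.62 and 2.18 CPM without. The BAR1 call was lost without with rapa replicate 2 (log2 fold change 0.90, adjusted p = 0.0979), and without no rapa replicate 1 or 2 (0.0831 and 0.212). Of 3 meiosis members CRR1, needed for the spore wall, rose, and SPS100 and SPO1 were uncalled, where 9 of 18 other list members rose and 3 fell. CRR1 was at 40.9 and 27 CPM with rapa, against 18.1 and 21.1 CPM without, and its call was lost without with rapa replicate 1 (0.43, adjusted p = 0.172) and without either no rapa library (0.186 and 0.0721). Of the cell cycle members PCL9, a cyclin of the kinase Pho85, fell and PCL2 was uncalled, where 18 of 34 other list members fell. PCL9 was at 29.9 and 36 CPM with rapa, against 49 and 55.5 CPM without, and its call was lost in the fit on open reading frames alone (adjusted p = 0.0516) and without either no rapa library (0.0564 and 0.158). None of the 3 phosphate members, PHO5, VTC1 and PHO85, was called.

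No member was found on the lists of RNA surveillance genes and of cotranscriptional chromatin factors, whose products act on antisense transcripts or on the chromatin they cross. Of the 19 surveillance genes measured, 3 rose and 2 fell, and of the 18 chromatin genes 3 rose and 9 fell, over the same 4 libraries.

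In 24 pairs both strands rose. The number of such pairs was 2 without no rapa replicate 1, 1 without no rapa replicate 2 and 60 without with rapa replicate 1. SDH9, a minor succinate dehydrogenase subunit gene picked after its values were seen, was at 5.61 and 14 CPM with rapa, against 1.86 and 2.62 CPM without, with SUT633 at 9.41 and 12.9 CPM with rapa and 2.89 and 4.01 CPM without. Neither strand was called without no rapa replicate 1 (adjusted p of 0.128 and 0.172) and without no rapa replicate 2 (0.0573 and 0.0738). MDH3, the peroxisomal malate dehydrogenase picked likewise, was at 77.6 and 94.9 CPM with rapa, against 63.6 and 57.7 CPM without, while SUT044, which spans it, was at 12.8 and 9.51 CPM with rapa and 1.03 and 1.43 CPM without. The antisense change of MDH3 was 3.17 on the log2 scale (SE 0.54, edgeR adjusted p = 5.59e-04), called in every alternative run, whereas its sense change was not called without with rapa replicate 2 (adjusted p = 0.0566) and without either no rapa library (0.130 and 0.259).

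Both strands fell at PDR3, OSI1 and ARO10. PDR3, a regulator of drug resistance transporters chosen after its values were seen, was at 116 and 99 CPM with rapa, against 221 and 215 CPM without, and XUT_2R-85 at 162 and 138 CPM with rapa and 310.3 and 235 CPM without. Its antisense to sense ratio per base was 1.81 and 1.8 with rapa, against 1.81 and 1.41 without, and the difference of 0.17 (SE 0.50) was uncalled (edgeR adjusted p = 0.805). The fall of XUT_2R-85 was not called without no rapa replicate 1 (adjusted p = 0.0554).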

How the data were processed

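Newly made RNA was measured in 4 libraries, 2 with rapa and 2 without. The submitters' processing notes name R64 and sacCer3 as builds, and HTSeq, SAMtools and STAR 2.3.0 as tools. The authors deposited raw read counts per annotated transcript for each library, with the annotation. The strand setting was not given in the sources used here. Rows naming no feature (33.1% to 50.5% of reads outside features, at most 0.0930% ambiguous) were left out. The labels do not call the replicates separate cultures, and the spread behind each p-value may therefore be technical.

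The test was that of edgeR 4.0.16 under R 4.3.3 (TMM, default filterByExpr, quasi-likelihood F-test, two-sided, Benjamini-Hochberg over 5707 features, threshold 0.05). Each SE was derived as the size of the log2 change over the root of its F statistic. Pairs were tested on 8 columns, sense and antisense counts of each library, with library, strand and strand by group terms, over 499 pairs whose transcripts both passed the filter. The common biological coefficient of variation was 19.8%. The scripts were tested on simulated data. Depth limits the with rapa libraries most.

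The rule for the members uses annotated positions alone, but it and the 12 gene lists were chosen with earlier results of these data known. The 36 named genes were, with a standard symbol: the 8 highest and 8 lowest called members whose groups did not overlap and whose mean log2 CPM reached 5, the 5 highest and 5 lowest called pairs and the 5 highest antisense to sense ratios without rapamycin (mean log2 CPM from 2 upward), members on the list of studied antisense loci, and up to 2 called members of each other list. Alternatives were DESeq2 1.42.0 and its size factors, no filter, open reading frames alone, a replicate block, each library left out, coverage of 25% and 80%, and, chosen after seeing the data, partners without same-strand overlap and all alternatives for partners, pairs and members named outside the rule.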

Additional observations from a re-analysis of the deposited data

Results flagged for a closer look

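Reads that fell outside every annotated feature made up 50.5% of the reads of with rapa replicate 1 and 50% of those of with rapa replicate 2, against 33.7% and 33.1% in no rapa replicates 1 and 2. They stand out because they are signal in data that no comparison uses, above its level in the libraries without rapamycin. They carry no positions in the count files, so how many of them lie antisense to the members was not analysed here. In with rapa replicate 2 they number 12685766, which differs by only 3 from the 12685769 reads counted in features.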

How the results depend on the processing

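With 2 libraries a group, the counts of calls depend on single libraries, and the with rapa libraries are the shallower ones. Leaving out each library in turn gave 36 to 91 members higher, 36 to 172 partners higher, 5 to 20 partners lower, a partner median of 0.83 to 1.29, 36 to 142 pairs higher, 4 to 30 pairs lower and a median of -0.18 to -0.10 for other open reading frames. The median of members was 0.00836 with DESeq2 size factors, 0.00833 with the DESeq2 Wald test and 0.0600 with open reading frames alone, and that of other open reading frames -0.0749, -0.0754 and -0.0233, where -0.07 and -0.15 are reported. Coverage of at least 80% left fewer members: 39 higher, 51 lower, a median of -0.15, 63 partners higher and 64 pairs higher. Coverage of at least 25% took in more, with 125 members lower and 152 pairs higher. The cause of the shifts with single libraries was not tested. The replicate numbers are shared between the groups, but nothing in the labels pairs them, and the correlation of same-numbered deviations over 2 pairs was 0.22. With the replicate block, members called were 70 higher and 83 lower, partners 107 and 16, and pairs 96 and 17. Of the alternative values of members named by rule, called or not, 310 stayed on the same side of the threshold, 13 lost a call and 1 gained one. Over the partners of named members these numbers were 336, 39 and 17, and over their pairs 347, 38 and 7. No call changed direction.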
